A study of Mus musculus with 22 samples.

Results

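The nuclear factor I (NFI) family comprises Nfia, Nfib, Nfic and Nfix, and was followed in the mouse telencephalon, from which the cerebral cortex and the basal ganglia develop. The 4 genes were taken by their symbols out of 55385 rows of the RNA count table. All 4 were among the 16237 genes that passed the filter on low counts. Peaks of histone marks and of open chromatin were assigned to a gene when they lay within 2 kb of its RefSeq span. The samples were telencephalon of ICR-strain mouse embryos with no labelled treatment, taken at embryonic day 16.5 (E16.5) and at embryonic day 13.5 (E13.5). RNA-seq and native ChIP-seq (chromatin immunoprecipitation on uncrosslinked material) covered both stages, and ATAC-seq, which maps open chromatin, covered E13.5. The ChIP-seq targets were H3K9ac and H3K9cr, the acetylated and the crotonylated form of the same lysine of histone H3, and H3K18la, a lactylated lysine of the same histone. Each assay had 2 libraries per stage, stated to be biological replicates, and the sources used here do not say whether embryos were pooled.

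NFI proteins are transcription factors that bind DNA as dimers, to a palindrome made of the core letters TTGGC and, after a spacer, GCCAA. Vertebrates carry these 4 paralogous genes. In the developing forebrain Nfia, Nfib and Nfix are known for guiding radial glia, the neural stem cells of the cortex, out of self-renewal and towards neuronal and glial differentiation. Nfia is also known as a switch for astrocyte formation, Nfib for axon tracts of the cortex, Nfix for the timing of hippocampal and muscle development, and Nfic for the growth of tooth roots.

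All 4 spans are given on GRCm38. Nfia (ENSMUSG00000028565.18) spanned 540.8 kb, chr4:97578066-98118876, and Nfib (ENSMUSG00000008575.17) 216.6 kb, chr4:82290173-82506751. Nfix (ENSMUSG00000001911.16) spanned 96.5 kb, chr8:84704712-84801238, and Nfic (ENSMUSG00000055053.18) was the shortest with 35.7 kb, chr10:81396191-81431919. The RefSeq promoter table (GRCm38.p6) matched 3 of the 4 members with 6 windows, each from 250 bases before to 50 bases after a start, of which 4 belonged to Nfix. The windows below are those of Nfia and Nfic, which carry a start each in that table, and the most upstream and the most downstream window of Nfix, the outer ends of the group of starts that 1 long H3K9ac peak covered at E16.5. They are shown 5′ to 3′ on the gene's strand, with every TTGGC or GCCAA in capitals.
Nfia, chr4:97581693-97581992, plus strand: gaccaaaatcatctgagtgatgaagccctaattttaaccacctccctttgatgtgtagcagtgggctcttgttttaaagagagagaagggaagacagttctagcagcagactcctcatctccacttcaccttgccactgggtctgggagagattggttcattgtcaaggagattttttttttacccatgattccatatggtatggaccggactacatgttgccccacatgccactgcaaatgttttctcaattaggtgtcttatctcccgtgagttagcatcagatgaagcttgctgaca
Nfic, chr10:81427124-81427423, minus strand: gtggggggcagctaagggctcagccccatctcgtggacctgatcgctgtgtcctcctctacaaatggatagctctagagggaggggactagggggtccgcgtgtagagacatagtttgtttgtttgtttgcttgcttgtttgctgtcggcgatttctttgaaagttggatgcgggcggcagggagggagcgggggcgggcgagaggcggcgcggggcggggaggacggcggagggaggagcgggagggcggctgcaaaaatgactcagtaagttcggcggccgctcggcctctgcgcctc
Nfix, upstream start, chr8:84780033-84780332, minus strand: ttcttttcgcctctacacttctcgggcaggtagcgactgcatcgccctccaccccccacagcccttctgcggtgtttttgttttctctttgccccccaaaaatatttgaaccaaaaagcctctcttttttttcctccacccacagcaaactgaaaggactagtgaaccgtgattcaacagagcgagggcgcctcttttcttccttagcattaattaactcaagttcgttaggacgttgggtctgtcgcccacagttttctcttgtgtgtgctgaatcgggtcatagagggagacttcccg
Nfix, downstream start, chr8:84772826-84773125, minus strand: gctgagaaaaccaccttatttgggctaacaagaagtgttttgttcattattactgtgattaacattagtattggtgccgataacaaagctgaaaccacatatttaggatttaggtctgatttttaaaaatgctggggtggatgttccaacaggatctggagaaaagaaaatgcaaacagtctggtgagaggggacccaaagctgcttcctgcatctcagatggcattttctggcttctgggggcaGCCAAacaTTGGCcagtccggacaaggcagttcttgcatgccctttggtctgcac

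The windows of Nfia and Nfic and the most upstream window of Nfix held no NFI core. The most downstream Nfix window held 2, with first bases at positions -5 and 4 counted from the start base as 1, in the order GCCAA then TTGGC. The other 2 Nfix windows held 1 core each, at positions -175 and 29. The full palindrome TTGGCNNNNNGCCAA, which reads the same on both strands, was in none of the 6 windows and in 12 of all 32851 promoter windows (0.0365%). At least 1 core on either strand was in 46.7% of all windows and at least 2 in 14.4%. The Nfic window was the richest of the 6 in G and C, at 63.0% with 24 CpG pairs, against 44.7% and 2 CpG pairs at Nfia and a median of 52.7% and 7 over all windows.

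The RNA levels of the 4 members moved in opposite directions between the stages. Nfia and Nfib fell and Nfix and Nfic rose, each past an adjusted p of 0.05 in edgeR's quasi-likelihood test over all genes. These 2 rises and 2 falls stand beside a background in which 28.4% of tested genes were called higher at E16.5 and 29.2% lower (57.6% in either direction), so being called was common among genes. Levels are in CPM, counts scaled by library size but not by transcript length, so they are compared between stages and not between genes. In this bulk tissue, fewer cells of a type and less RNA per cell cannot be told apart.

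Nfia had 110.45 and 109.59 CPM at E16.5, against 213.92 and 214.17 CPM at E13.5. The libraries of each stage lay very close together and the stages were far apart. Nfia averaged 110.0 ± 0.613 CPM at E16.5 and 214 ± 0.173 CPM at E13.5 (SD, n = 2 each), a log2 change of -0.96 (SE 0.0496, 95% interval -1.07 to -0.85, edgeR adjusted p = 2.72e-06). Of all tested genes, 5.14% had a more negative log2 change.

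Nfix had 773 and 773 CPM at E16.5, against 477 and 335 CPM at E13.5. The E16.5 libraries were alike, the E13.5 libraries differed from each other, and the stages did not overlap. Its mean was 773 ± 0.498 CPM at E16.5 and 406 ± 100.5 CPM at E13.5, a log2 change of 0.93 (SE 0.133, 95% interval 0.62 to 1.24, edgeR adjusted p = 0.000531). A smaller log2 change was found in 84.6% of the tested genes. Without E13.5 replicate 1 the change was 1.20 and without E13.5 replicate 2 it was 0.68, and both stayed past the threshold.

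Nfib had 548 and 531 CPM at E16.5, against 794 and 648 CPM at E13.5. The higher E13.5 library was replicate 1, as for Nfix. The means were 539.7 ± 12.3 CPM at E16.5 and 721 ± 103 CPM at E13.5, a log2 change of -0.42 (SE 0.0815, 95% interval -0.61 to -0.23, edgeR adjusted p = 0.00279). The size of this fall rested on the E13.5 libraries. It was -0.27 without E13.5 replicate 1 and -0.57 without E13.5 replicate 2, and was called in both cases.

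Nfic, with the fewest counts, had 60.8 and 59.3 CPM at E16.5, against 52.2 and 46.9 CPM at E13.5. Its means of 60.1 ± 1.1 CPM at E16.5 and 49.6 ± 3.72 CPM at E13.5 gave a log2 change of 0.28 (SE 0.0689, 95% interval 0.12 to 0.44, edgeR adjusted p = 0.00901). This call was not stable. The change was 0.27 with DESeq2 (adjusted p = 0.0548), 0.19 without E13.5 replicate 2 (edgeR adjusted p = 0.0861) and 0.24 without E16.5 replicate 1 (edgeR adjusted p = 0.0602). The authors' deposited table, for which DESeq2 is named, held the same values as the DESeq2 run here, so it is no separate check. Its DESeq2 adjusted p was 0.0548 for Nfic, and 1.48e-40, 0.0115 and 0.00106 for Nfia, Nfib and Nfix.

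**Figure D1:**
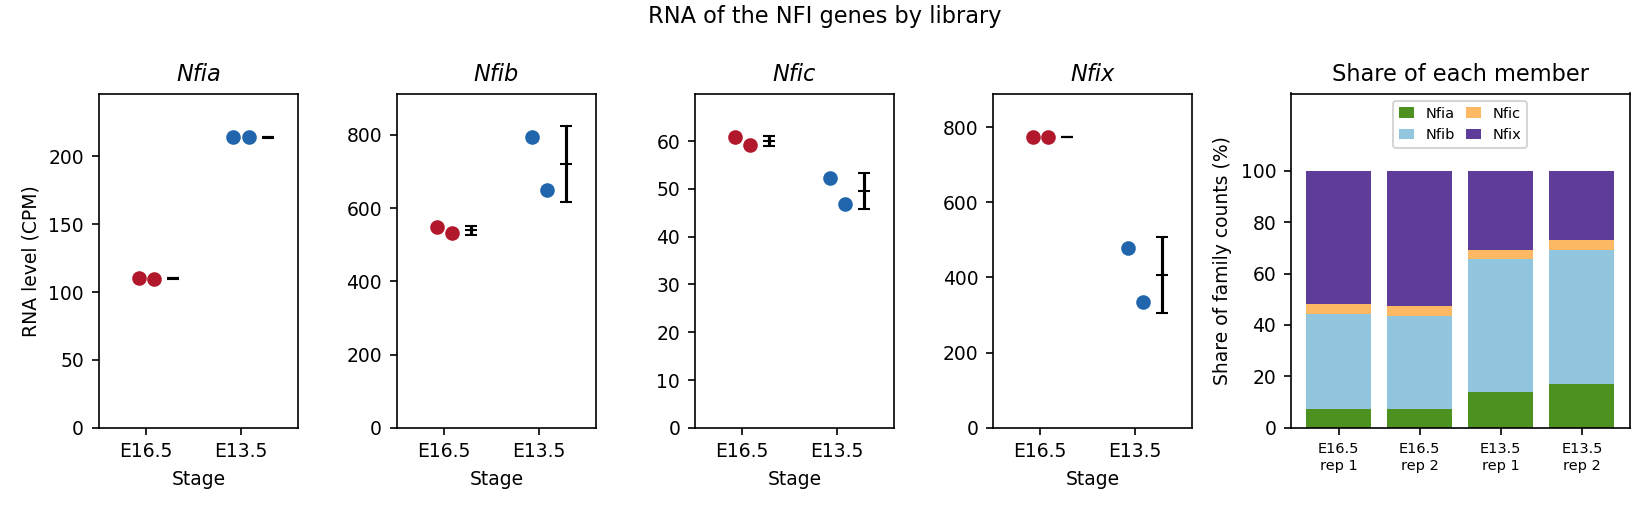
RNA level of each NFI gene in CPM by library (red points, E16.5; blue points, E13.5; black bars, mean and SD of 2 libraries), and, in the last panel, the share of the family's counts that each gene took in a library. Nfix lay at 773 CPM in both E16.5 libraries and at 477 and 335 CPM at E13.5, while Nfia lay near 110 CPM at E16.5 and 214 CPM at E13.5.

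The make-up of the family's RNA differed between the stages in these libraries, while its sum overlapped. The summed level of the 4 genes was 1492 and 1473 CPM at E16.5, against 1537 and 1244 CPM at E13.5. Nfix took 51.8% and 52.5% of the family's counts at E16.5, against 31.0% and 26.9% at E13.5. Nfib took 36.7% and 36.0% at E16.5, against 51.6% and 52.1% at E13.5. Nfib thus held the largest share of counts in both E13.5 libraries and Nfix in both E16.5 libraries. Nfia took 7.40% and 7.44% at E16.5, against 13.9% and 17.2% at E13.5, and Nfic took 4.08% and 4.02% at E16.5, against 3.4% and 3.77% at E13.5. None of the 4 shares overlapped between the stages. They are parts of a single total in each library, so they are not 4 separate results. With 2 libraries against 2, a two-sided exact permutation test cannot go below p = 0.333, which was the value for each share. When Nfia was left out of the sum, the Nfic shares overlapped between the stages. How many of all tested genes had levels without overlap was not counted. A count share depends on transcript length as well as abundance, and no lengths were used.

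Other genes overlap the NFI spans, and the sources used here do not say whether RNA counting used strand, so reads of overlapping genes may be shared. The long non-coding RNA E130114P18Rik overlaps the start of Nfia. It had 6.76 and 8.61 CPM at E16.5, against 24.8 and 19.9 CPM at E13.5, and fell by 1.54 on the log2 scale (edgeR adjusted p = 0.000106), in the direction of Nfia. Gm11266, a long non-coding RNA beyond the higher end of Nfib, had 8.49 and 8.34 CPM at E16.5, against 11.4 and 6.78 CPM at E13.5, and the stages overlapped (edgeR adjusted p = 0.719). Lyl1, a transcription factor gene known from blood cells whose span meets that of Nfix, had 2.01 and 3.60 CPM at E16.5, against 0.961 and 0.937 CPM at E13.5, a log2 change of 1.56 (edgeR adjusted p = 0.00996).

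The genes whose pattern over the 4 RNA libraries lay closest to each member were found by the root mean square distance between gene-centred log2 CPM, among 10388 genes averaging 10 CPM or more. For Nfix these were Fam177a, Pik3ip1 and Tmem74, with distances of 0.0256, 0.0403 and 0.0498 and log2 changes of 0.96, 0.99 and 0.89. For Nfia they were Zfp24, Cdc34 and Snrpb, with distances of 0.0128 to 0.0195 and log2 changes of -0.97, -0.95 and -0.93. Jund, Serping1 and Rpia lay closest to Nfib, and Atp2a2, Odr4 and Tmtc2 closest to Nfic. Few genes shared the pattern of Nfix: 21 lay within a distance of 0.1 of it, against 294 for Nfia, 611 for Nfib and 1124 for Nfic. Over 4 libraries of 2 stages such distances describe mainly the size of the stage difference and the spread at E13.5.

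Genes listed as regulators or partners of NFI factors mostly fell. Of 10 such regulators and partners, all tested, 7 fell and 2 rose, where 29.2% of all tested genes were called lower and 28.4% higher. Their median log2 change was -0.87, against 0.0088 over all tested genes. Emx2, a cortical patterning factor, had 12.6 and 11.7 CPM at E16.5, against 36.4 and 34.96 CPM at E13.5, a log2 change of -1.55 (SE 0.0976, edgeR adjusted p = 6.57e-06). Pax6, which specifies cortical radial glia, had 53.8 and 47.7 CPM at E16.5, against 119.99 and 125 CPM at E13.5 (log2 change -1.27). Sox9, which induces Nfia in the spinal cord and acts beside it in glial cells, had 73.5 and 66.0 CPM at E16.5, against 139 and 157 CPM at E13.5 (log2 change -1.09). The 2 rises were Pou3f2, a neuronal POU factor also called Brn2, at 0.57, and Zbtb20, a repressor active in hippocampal neurons and astrocytes, at 0.32. Pou3f3 was the member of that list that passed in neither direction, at -0.04 (95% interval -0.17 to 0.10).

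Genes reported as NFI targets in the nervous system were mixed. Of 15 listed, 13 were tested, 8 rose and 5 fell, where 28.4% of all tested genes were called higher and 29.2% lower. Their median log2 change was 0.29. The astrocyte glutamate transporter Slc1a3 had 302 and 264 CPM at E16.5, against 103 and 111 CPM at E13.5 (log2 change 1.40, SE 0.0756, edgeR adjusted p = 3.21e-06). Apcdd1, a membrane inhibitor of Wnt signalling, had 125 and 127 CPM at E16.5, against 68.9 and 68.0 CPM at E13.5 (log2 change 0.88). Gfap, the filament protein of mature astrocytes, stayed scarce, with 1.45 and 1.85 CPM at E16.5, against 0.0601 and 0.0551 CPM at E13.5, and is described although its level was too low to be named by rule. Hes1, a Notch effector of stem cells that NFIA represses in mouse cortex, had 7.43 and 6.70 CPM at E16.5, against 15.3 and 11.1 CPM at E13.5 (log2 change -0.90). Ezh2, the histone methyltransferase that NFIB represses in mouse cortex, had 159 and 153 CPM at E16.5, against 271 and 278 CPM at E13.5 (log2 change -0.82), and was picked after its values were seen. Without E16.5 replicate 1, 5 of 14 tested targets rose and 5 fell.

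**Figure D2:**
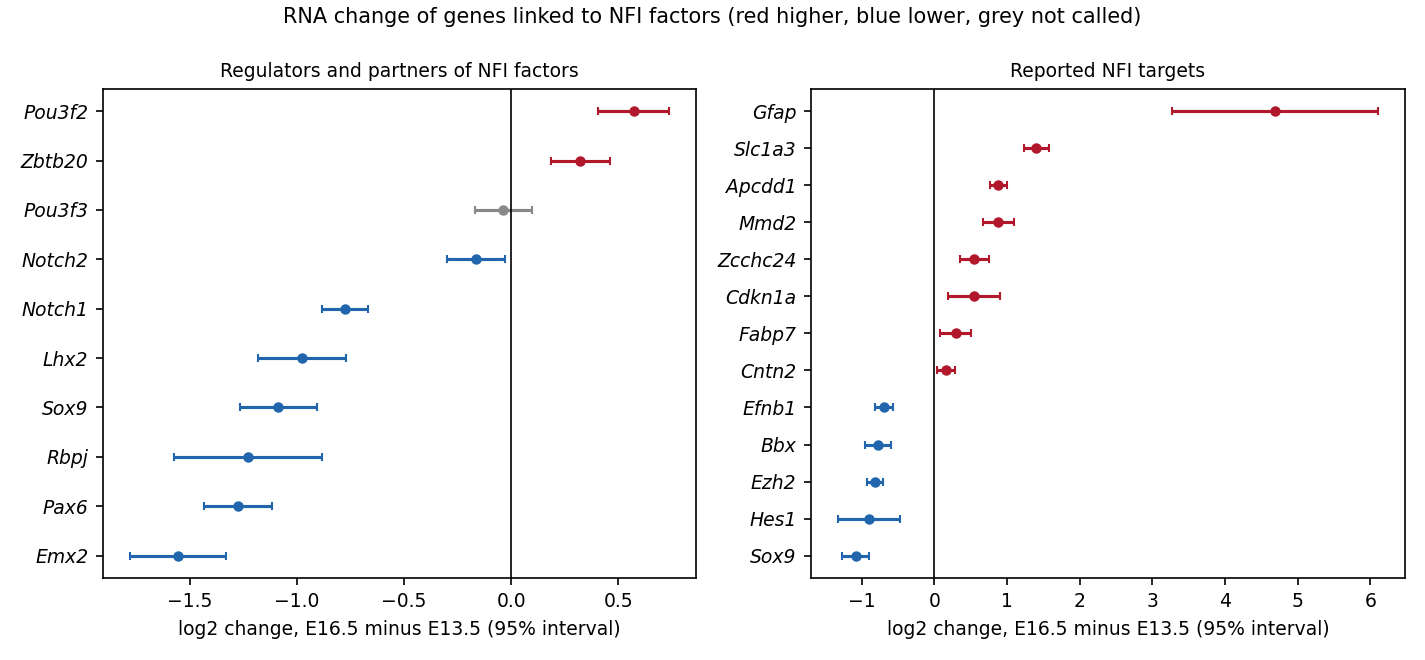
Log2 change in RNA, E16.5 minus E13.5, of regulators and partners of NFI factors and of reported NFI targets (points, estimates; lines, 95% intervals; red, higher at E16.5; blue, lower; grey, not called). Of the regulators 7 fell and 2 rose, and of the 13 tested targets 8 rose and 5 fell. Among all tested genes 28.4% were called higher and 29.2% lower.

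Markers of cell types moved between the stages beside the NFI genes. Their counts stand beside the 28.4% of all tested genes called higher at E16.5 and the 29.2% called lower. Of 14 tested astroglial genes 12 rose, among them Gfap (log2 change 4.69, at the low levels given above), Hepacam (3.62) and the water channel Aqp4 (3.02), and 1, the receptor Fgfr3 (-1.06), fell, with summed levels of 1647 and 1496 CPM at E16.5, against 626 and 633 CPM at E13.5. All 12 dividing cell genes fell, among them Ccnb1 at -1.75 and Mcm3 at -1.73, with sums of 753 and 704 CPM at E16.5, against 2106 and 2138 CPM at E13.5. Of 12 radial glia genes 3 rose, among them Ptprz1 at 0.60 and Fabp7 at 0.29, and 9 fell, among them Gli3 at -1.73 and the filament protein Nes at -1.54, with sums of 2165 and 1989 CPM at E16.5, against 2802 and 2892 CPM at E13.5. Of 12 neuronal genes 7 rose, among them the microtubule protein gene Mapt at 1.24, and 3 fell, among them Neurod6 at -0.49 and Bcl11b at -0.33, with sums of 7272 and 7492 CPM at E16.5, against 6270 and 6228 CPM at E13.5. All 10 vessel genes and all 8 microglial genes rose, with vessel sums of 528 and 564 CPM at E16.5, against 166 and 176 CPM at E13.5, and microglial sums of 145 and 141 CPM at E16.5, against 68.0 and 68.5 CPM at E13.5. Meningeal and mesenchymal genes (2 of 6 tested rose, none fell) summed to 66.5 and 62.3 CPM at E16.5, against 17.8 and 30.5 CPM at E13.5. Pdgfra, which is also in the oligodendrocyte lineage list, supplied 40.8 and 36.2 CPM of those sums at E16.5, against 7.57 and 6.73 CPM at E13.5. Of 8 oligodendrocyte lineage genes 6 rose and 2 fell, with sums of 202 and 185 CPM at E16.5, against 104 and 112 CPM at E13.5. Of 8 erythroid genes 4 rose and 2 fell, the embryonic globins Hbb-y at -8.36 and Hba-x at -6.55, with sums of 2445 and 3305 CPM at E16.5, against 1857 and 1826 CPM at E13.5. The part of these shifts in the NFI changes was not tested. The lists also share genes, so their counts are not separate. Pax6 is a listed regulator and a radial glia gene, and Emx2 and Lhx2 are listed regulators and telencephalon genes. Among the reported targets, Sox9 is also a listed regulator, Gfap and Slc1a3 are astroglial genes, and Fabp7 and Hes1 are radial glia genes.

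The tissue label was set against region markers. All 10 telencephalon genes were tested and all 10 fell, where 29.2% of all tested genes were called lower. Their sums were 1991 and 2010 CPM at E16.5, against 3221 and 3111 CPM at E13.5. Of 10 genes of other brain regions 3 were tested and 2 fell, with sums of 10.2 and 9.26 CPM at E16.5, against 19.4 and 36.4 CPM at E13.5. Hoxa2, Hoxb1, Hoxb4 and Hoxd4, genes of the hindbrain and spinal cord, had 0 counts in all 4 libraries. The 2 falling genes were Otx2, with 4.25 and 4.58 CPM at E16.5 against 13.8 and 23.2 CPM at E13.5, and Gbx2, with 1.84 and 2.02 CPM at E16.5 against 3.66 and 10.3 CPM at E13.5, both highest in E13.5 replicate 2.

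The peak lists differed in size before any gene was examined. The E16.5 lists held 49652 and 50668 peaks for H3K9ac, against 37319 and 34532 at E13.5, and 41074 and 42304 for H3K9cr, against 32567 and 28968 at E13.5. For H3K18la they held 62073 and 76037 peaks at E16.5, against 73369 and 69157 at E13.5. H3K18la E16.5 replicate 1 stood apart, with a median peak length of 486 bp, against 634 to 650 bp in the other 3 libraries of that mark. Values are therefore also given after each list of a mark was reduced to its strongest peaks, as many as the shortest list of that mark holds (equal lists). Read depths behind the lists are unknown here.

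At Nfix, both H3K9 marks covered far more of the gene at E16.5. H3K9ac peaks covered 72.2 and 72.7 kb of the 100.5 kb window at E16.5, against 54.9 and 39.3 kb at E13.5. The mean was 72.4 ± 0.362 kb at E16.5 and 47.1 ± 10.98 kb at E13.5 (SD, n = 2 each), a ratio of 1.54 against a median ratio of 1.02 over all protein-coding genes with peaks in all 4 libraries. H3K9cr peaks covered 66.0 and 69.1 kb at E16.5, against 44.6 and 27.4 kb at E13.5, a ratio of 1.88 against a median of 1.08. The ratios in equal lists were 1.52 for H3K9ac and 1.83 for H3K9cr, so they changed little with list size.

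Among protein-coding genes with a peak, both E16.5 libraries lay above both E13.5 libraries in 37.2% for H3K9ac and in 45.2% for H3K9cr, and below them in 24.9% and 11.7%, so the lack of overlap was itself common. These shares in equal lists were 28.3% and 38.5% above and 31.1% and 14.7% below, and both marks at Nfix and Nfib and H3K9cr at Nfia were still without overlap. A difference as large as that at Nfix was rarer. Its H3K9ac difference of 25.4 kb was exceeded by 3 of 15524 genes, among them Tcf4 at 34.7 kb and Foxp1 at 32.9 kb. For H3K9cr its difference of 31.5 kb was exceeded by 3 of 15389 genes, among them Tcf4 at 41.8 kb and Foxp1 at 37.3 kb. Tcf4 and Foxp1, which encode transcription factors of neurons, were picked after their values were seen, and their spans of 344.5 and 597 kb are longer than that of Nfix. By ratio Nfix stood lower, above 89.9% of genes for H3K9ac and 93.8% for H3K9cr.

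**Figure D3:**
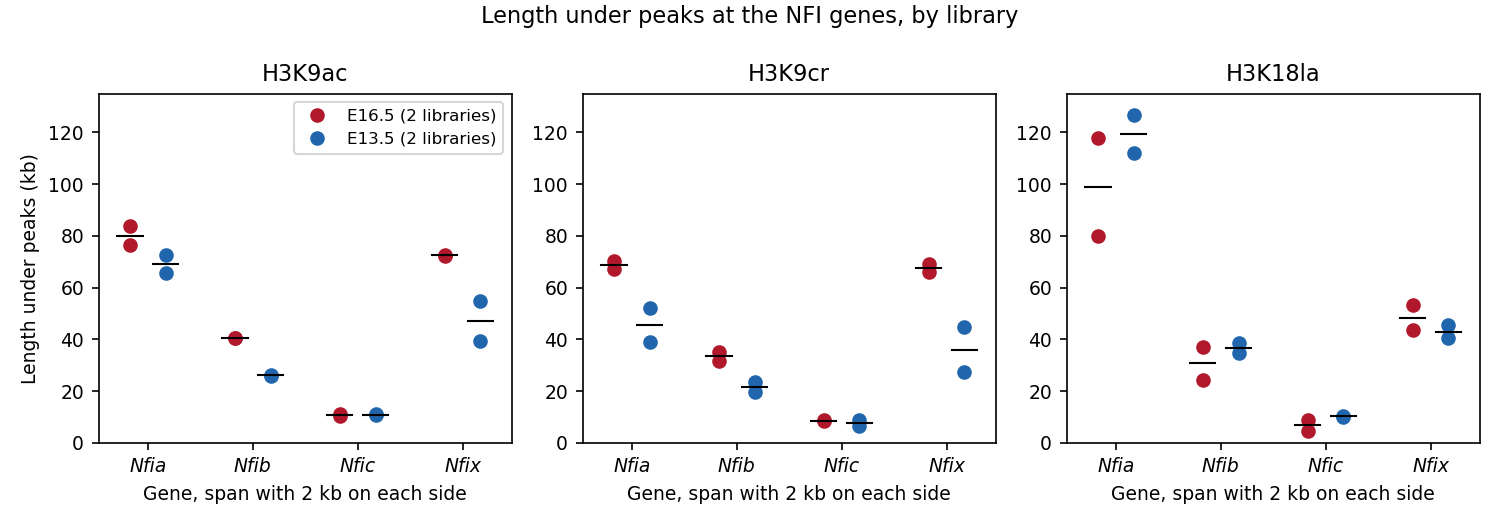
Length under peaks in kb, within each NFI gene and 2 kb on each side, for the 3 histone marks (red, E16.5; blue, E13.5; points, libraries; lines, means of 2). H3K9ac and H3K9cr separated the stages at Nfix, Nfib and Nfia, while H3K18la overlapped at Nfix, Nfib and Nfia.

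Part of the difference at Nfix lay around the RefSeq starts whose outer windows are printed above. In E16.5 replicate 1 a single H3K9ac peak of 28.4 kb, and in E16.5 replicate 2 a single peak of 28.9 kb, ran over all 4 starts. They were the 9th of 49652 and the 10th of 50668 peaks by length in their lists. The joint region, chr8:84762291-84791184, reached from 11.1 kb upstream to 17.8 kb downstream of the most upstream listed start. It lay inside the gene, whose span begins 21.2 kb upstream of that start. In the same region the E13.5 libraries had 8 and 7 separate H3K9ac peaks that covered 21.2 and 11.8 kb, none longer than 6.85 kb.

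H3K9cr had the same outline. In chr8:84762423-84791177 the E16.5 libraries had 1 peak of 28.4 kb and 2 peaks covering 28.5 kb, against 12 and 8 peaks covering 18.1 and 9.18 kb at E13.5. H3K18la filled 15.9 and 18.1 kb of a narrower region at E16.5, chr8:84770787-84788908, in 5 peaks and in 1 peak, against 14.4 and 10.1 kb in 8 and 7 peaks at E13.5. The fold enrichment of a peak over the caller's local background is the authors' own value and is given only to describe peaks. Folds of different libraries are set side by side without a test. The Nfix peak over the starts had 54.7 and 44.2 for H3K9ac in the E16.5 libraries. At E13.5, the strongest H3K9ac peak in that region had 20.3 and 19.7. The strongest H3K9ac peak of the whole gene at E13.5 lay outside that region, nearer the upstream end of the span. It was chr8:84797382-84799649 in replicate 1 and chr8:84797444-84799634 in replicate 2, with folds of 35.1 and 24.8. The strongest H3K9cr peak at E13.5 lay there too, with folds of 42.1 and 25.4.

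At the upstream Nfix start alone, the H3K9ac peak was 28.4 and 28.9 kb long at E16.5, against 3.09 and 0.89 kb at E13.5. At the 3 starts further downstream an H3K9ac peak of 6.85 kb was present in both E13.5 libraries. Short regions called in both E16.5 libraries and in no E13.5 library lay further into Nfix. They were 3 of 17 merged H3K9ac regions (17.6%, against 14.5% of all merged H3K9ac regions), from 18.5 to 33.9 kb downstream of the upstream start, and 5 of 26 merged H3K9cr regions (19.2%, against 13.9% of all), from 18.4 to 45.6 kb. In equal lists they were 3 of 15 for H3K9ac (20%, against 6.15% of all) and 1 of 18 for H3K9cr (5.56%, against 5.66%). In the full lists all 3 of the H3K9ac regions were also E16.5-only regions of H3K9cr. The strongest, chr8:84760299-84761582, had H3K9ac folds of 9.06 and 7.59 in the authors' lists. No ATAC peak overlapped the window of any listed start of Nfix, Nfia or Nfic at E13.5.

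**Figure D4:**
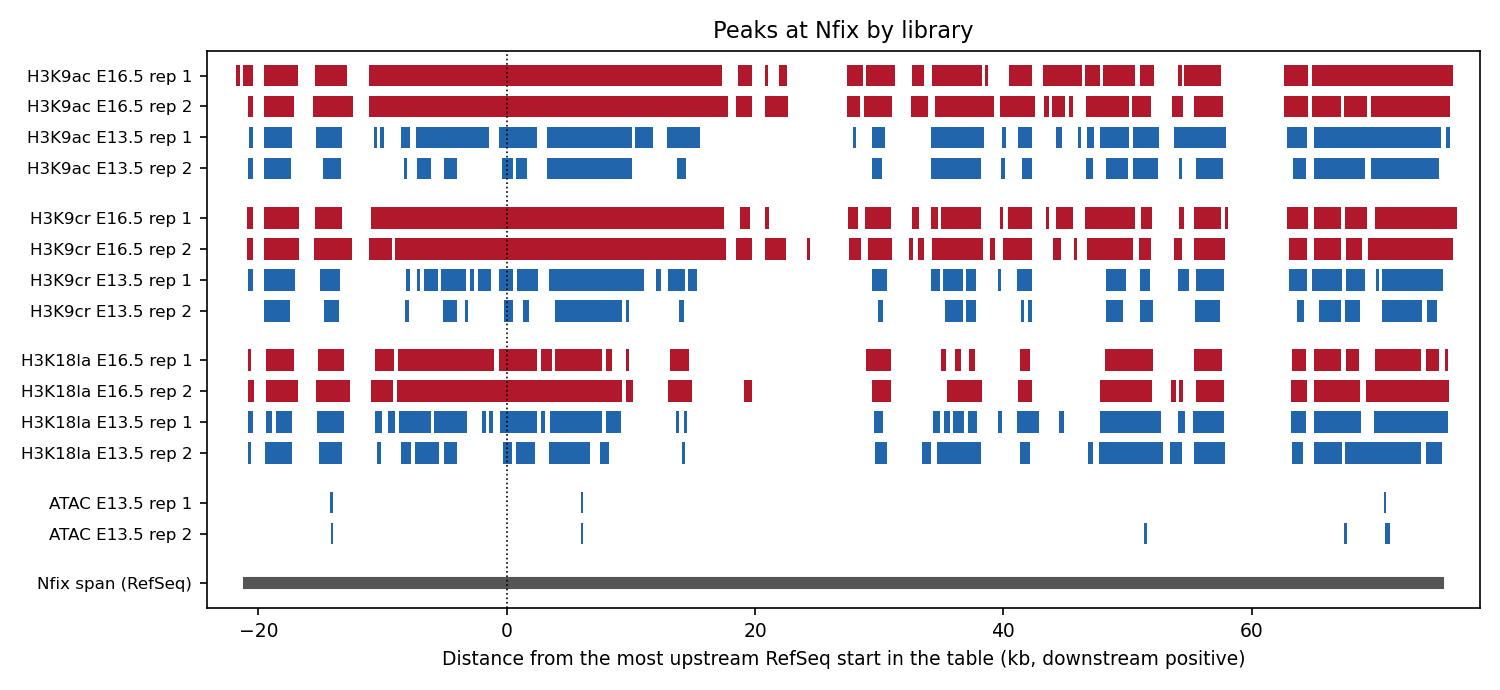
Peaks of every library at Nfix, by distance in kb from the most upstream RefSeq start in the promoter table (dotted line; downstream to the right; red, E16.5; blue, E13.5; grey, the gene's span). A block from 11.1 kb upstream to 17.8 kb downstream is continuous for H3K9ac at E16.5 and split into 8 and 7 peaks at E13.5.

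At Nfib, whose RNA fell, the H3K9 marks also covered more at E16.5. H3K9ac covered 40.7 and 40.5 kb at E16.5, against 26.0 and 26.3 kb at E13.5. The libraries of a stage were close together and the ratio of the means was 1.55, with a difference of 14.4 kb that 16 of 15524 genes exceeded. By ratio Nfib stood lower, above 90.2% of genes for H3K9ac and 87.3% for H3K9cr. H3K9cr covered 31.6 and 35.3 kb at E16.5, against 23.6 and 19.7 kb at E13.5, a ratio of 1.54. The ratios were smaller in equal lists, at 1.34 for H3K9ac and 1.29 for H3K9cr, and the stages did not overlap.

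Part of the gain at Nfib came from short regions inside the gene. The largest block, chr4:82490895-82506386 at the higher end of the span, was 1 H3K9ac peak in every library, of 15.5 and 15.5 kb at E16.5, against 13.9 and 13.9 kb at E13.5. Of 29 merged H3K9ac regions at Nfib, 9 were likewise called in both E16.5 libraries and in no E13.5 library (31.0%, against 14.5% of all merged H3K9ac regions), and none only at E13.5 (1.26% of all). They lay between 20.5 and 165.5 kb from the higher end and were 0.39 to 1.29 kb long, 6.83 kb in all. Of them 5 were also E16.5-only regions of H3K9cr, where 6 of 21 were in that class (28.6%, against 13.9% of all). The one with the highest mean fold, chr4:82483385-82484672, had folds of 7.32 and 7.17 in the authors' lists. In equal lists 3 of 20 H3K9ac regions were E16.5-only (15%, against 6.15% of all) and 1 was E13.5-only (5%, against 4.61%). For H3K9cr, 1 of 14 was then E16.5-only (7.14%, against 5.66% of all).

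**Figure D5:**
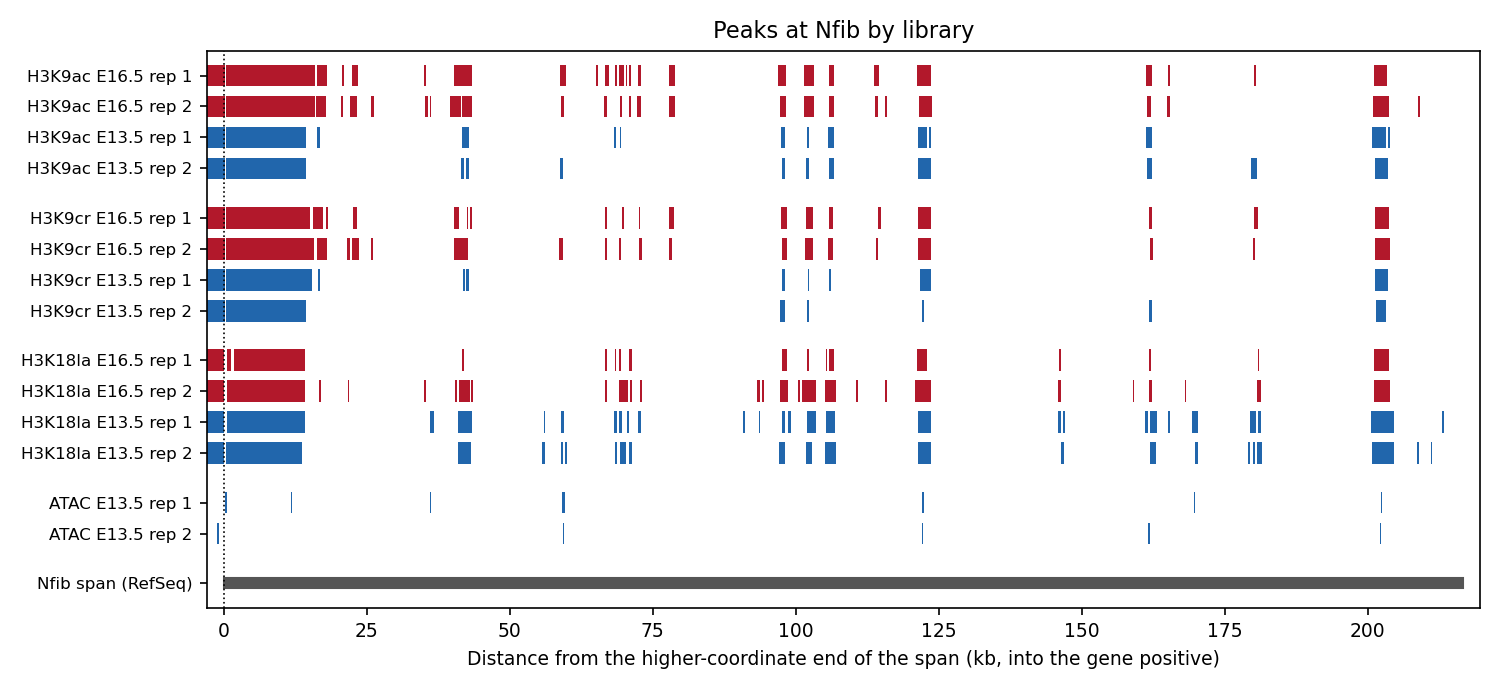
Peaks of every library at Nfib, by distance in kb from the higher-coordinate end of its span (dotted line; into the gene to the right; red, E16.5; blue, E13.5; grey, the gene's span). The block next to the end is present in every library of the 3 marks, and short H3K9ac and H3K9cr peaks between 20.5 and 165.5 kb are more numerous at E16.5.

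At Nfia, the other member whose RNA fell, the marks differed from each other. H3K9cr covered 67.1 and 70.2 kb at E16.5, against 52.2 and 38.8 kb at E13.5, a ratio of 1.51 that was 1.31 in equal lists. In the full lists that ratio stood above 85.9% of genes. H3K9ac covered 83.8 and 76.4 kb at E16.5, against 72.8 and 65.6 kb at E13.5, a ratio of 1.16, above 70.2% of genes. That difference of 10.9 kb was 7.24 kb without E16.5 replicate 1, and in equal lists it was 1.64 kb and the stages overlapped. Of 51 merged H3K9cr regions at Nfia 9 were E16.5-only (17.6%, against 13.9% of all H3K9cr regions) and none E13.5-only (0.584% of all). In equal lists 3 of 33 were E16.5-only (9.09%, against 5.66% of all) and 1 was E13.5-only (3.03%, against 3.25%). Without E13.5 replicate 2, 10 of 51 were E16.5-only and 4 E13.5-only. A single library then defined E13.5, and the shares of all regions were not counted in that setting. Of the 9 in the full lists, 6 lay at H3K9ac peaks of both E13.5 libraries and 7 at H3K18la peaks of both E13.5 libraries. The corresponding counts were 0 and 1 of 6 at Nfib, and 0 and 0 of 5 at Nfix. Such shares were not counted over all E16.5-only H3K9cr regions, so these counts only describe the genes. The strongest of the 9 at Nfia, chr4:97795383-97796954, lay 213 kb downstream of the start, with folds of 10.1 and 9.40 in the authors' lists.

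The Nfia start was marked at both stages. All 3 marks had a peak over the start window printed above in every library. The H3K9ac peak there was 10.2 and 9.87 kb long at E16.5, against 9.32 and 8.88 kb at E13.5, and the H3K9cr peak was 8.95 and 7.51 kb at E16.5, against 9.09 and 6.74 kb at E13.5. In the authors' lists the fold of the peak at the Nfia start was 36.9 and 36.4 for H3K9ac at E16.5, against 56.2 and 51.1 at E13.5. For H3K9cr the fold there was 49.1 and 44.2 at E16.5, against 79.1 and 64.6 at E13.5, and for H3K18la 12.5 and 14.4 at E16.5, against 19.8 and 21.8 at E13.5. The E16.5 folds at this start were thus the lower ones for all 3 marks, unlike those of H3K9ac at Nfix, each fold being relative to its own library's background. Median folds of the whole H3K9cr lists were also lower, at 9.26 and 8.65 at E16.5, against 12.15 and 14.38 at E13.5. For H3K9ac the list medians were 7.86 and 7.43 at E16.5, against 8.43 and 8.53 at E13.5. For H3K18la they were 4.86 and 4.59 at E16.5, against 4.58 and 4.81 at E13.5, and the stages overlapped. Whether the folds at the Nfia start differed beyond the list-wide differences of each mark was not tested. The longest H3K9ac region of the gene shared by all libraries was not at the start but inside the gene, chr4:97777665-97790607, 196 kb downstream. It was covered for 12.9 and 12.6 kb at E16.5, in 1 and 2 peaks, against 8.49 and 6.08 kb at E13.5, in 7 and 3 peaks.

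Nfic, whose rise in RNA was the smallest, showed no separation in the H3K9 marks. H3K9ac covered 11.3 and 10.2 kb at E16.5, against 10.97 and 10.87 kb at E13.5, and H3K9cr covered 8.27 and 8.81 kb at E16.5, against 8.86 and 6.52 kb at E13.5. In equal lists the H3K9ac mean was 8.57 kb at E16.5 and 10.8 kb at E13.5, and the stages no longer overlapped. No stage-specific H3K9ac or H3K9cr region was found among its 8 and 7 regions, too few to set apart from the shares of all regions. Of all regions, 14.5% and 13.9% were E16.5-only and 1.26% and 0.584% E13.5-only. The start window of Nfic lay under H3K9ac and H3K9cr peaks in every library, but under an H3K18la peak in 0 of 2 libraries at E16.5 and in 1 of 2 at E13.5.

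Over the whole family, the regions called in every library were 57 of 113 for H3K9ac (50.4%, against 46.2% of all regions), 45 of 105 for H3K9cr (42.9%, against 50.8%) and 70 of 164 for H3K18la (42.7%, against 32.3%). Over the 4 genes, 15 of 113 merged H3K9ac regions were E16.5-only (13.3%), a share near the 14.5% of all regions, and 1 was E13.5-only. For H3K9cr 20 of 105 were E16.5-only (19.0%), against 13.9% of all regions, and none was E13.5-only. In equal lists, regions called in every library made up 51.7%, 57.7% and 47.7% at the 4 genes for H3K9ac, H3K9cr and H3K18la, against 56.3%, 64.2% and 35.1% of all regions. The stage-specific counts then became 6 of 87 H3K9ac regions (6.90%, against 6.15% of all), with 7 E13.5-only (8.05%, against 4.61%), and 5 of 71 H3K9cr regions (7.04%, against 5.66%), with 1 E13.5-only (1.41%, against 3.25%). The summed H3K9ac length was 208 and 199.9 kb at E16.5, against 165 and 142 kb at E13.5, and the summed H3K9cr length was 173 and 183 kb at E16.5, against 129 and 92.5 kb at E13.5. Exact two-sided permutation tests gave the smallest possible p of 0.333 for both sums, and for H3K9ac and H3K9cr at Nfia, Nfib and Nfix.

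H3K18la overlapped between the stages at 3 of the 4 genes. Its length at Nfix was 43.7 and 53.2 kb at E16.5, against 45.4 and 40.6 kb at E13.5, and the stages overlapped. The ratio of the means was 1.13, against a median of 0.845 over all genes with peaks in all 4 libraries, and 31 of 15078 genes had a larger difference than its 5.41 kb. That ratio stood lower among genes, above 85.6% of them. Without E16.5 replicate 1, the library that stood apart, the remaining E16.5 library lay above both E13.5 libraries, at 53.2 kb. At Nfia the length was 79.9 and 117.8 kb at E16.5, against 126.7 and 111.9 kb at E13.5, and at Nfib 24.4 and 37.0 kb at E16.5, against 38.5 and 34.8 kb at E13.5, with the low E16.5 value in the library that stood apart. At Nfic it was 4.55 and 8.86 kb at E16.5, against 10.03 and 10.55 kb at E13.5, both E16.5 libraries below both E13.5 libraries, as in 38.9% of genes for this mark. The reverse held in 7.41% of genes. Equal lists gave shares of 39.3% and 8.48%, Nfic stayed below, and Nfix came to lie above, at a mean of 48.1 kb at E16.5 and 41.6 kb at E13.5.

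Of 164 merged H3K18la regions at the 4 genes, 2 were E16.5-only (1.22%, against 5.02% of all H3K18la regions) and 6 E13.5-only (3.66%, against 6.87%). In equal lists they were 3 (2.27%, against 5.90% of all) and 6 (4.55%, against 7.11%). In the full lists the E13.5-only regions were 4 at Nfib, 1 at Nfia and 1 at Nfic. The strongest of them at Nfib, chr4:82326381-82327290, had folds of 5.83 and 4.91 in the authors' lists. The summed H3K18la length at the 4 genes was 153 and 217 kb at E16.5, against 221 and 198 kb at E13.5 (exact two-sided permutation p = 0.667).

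Open chromatin, measured at E13.5 only, was found inside or beside all 4 genes. The ATAC-seq libraries held 26 and 27 peaks there, of 26446 and 28232 in all. Nfia had 13 and 15 of them, Nfib 7 and 5, Nfic 3 and 2, and Nfix 3 and 5. H3K18la peaks of both E13.5 libraries overlapped 22 of the 26 (84.6%) and 25 of the 27 (92.6%), against 59.0% and 57.0% of all ATAC peaks. For H3K9ac the overlap was 18 of 26 (69.2%) and 22 of 27 (81.5%), against 59.4% and 56.8% of all ATAC peaks. For H3K9cr it was 18 of 26 (69.2%) and 20 of 27 (74.1%), against 56.5% and 53.8% of all ATAC peaks. All 3 and all 5 Nfix peaks lay under all 3 marks. The NFI spans hold much marked sequence, and these overlaps were counted without a test.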

How the data were processed

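The RNA table that the authors deposited held expected counts. Salmon 1.1.0 is named in the submitters' processing notes. The authors' deposited comparison table gave log2 fold changes and p-values, and those notes name DESeq2 1.26.0. Bowtie2 2.4.1, MACS2 2.2.7.1 and GRCm38 are also named there. Each deposited peak list, 1 per library, gave per the file headers a pileup signal, −log10 p-values and q-values, and a fold ratio over local background. The sources used here give neither caller settings nor read depths.

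The test was edgeR 4.0.16 on rounded expected counts (TMM, filterByExpr, quasi-likelihood F test, Benjamini-Hochberg over 16237 genes, threshold 0.05, n = 2 per stage). Totals were 17533164 and 18024657 counts at E16.5, against 17059544 and 18485855 at E13.5. The fit was tested on simulated counts. Peaks of a mark were merged at an overlap of 1 bp. Stage-specific means called in both libraries of a stage and in neither of the other. Sequences came from RefSeq promoters of GRCm38.p6.

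Members and gene lists were chosen with earlier results of these data known. List genes were named by rule: up to 2 rising and 2 falling per list with the largest change, a mean of at least 1 CPM and no overlap between stages. The nearest 3 genes per member and the strongest stage-specific and longest shared region per gene and mark were also taken by rule. A gene that would otherwise be named is not reported here. Input libraries and protein sequences were not used here. The alternatives tried are given in the closing section.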

Additional observations from a re-analysis of the deposited data

How the results depend on the processing

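The directions of Nfia, Nfib, Nfic and Nfix were the same under RLE and upper-quartile scaling, no filter, DESeq2, the replicate block and each left-out library, and only the Nfic call was lost, under DESeq2 (0.27) and within a left-out range of 0.19 to 0.35. Left-out ranges were -0.98 to -0.96 for Nfia, -0.57 to -0.27 for Nfib and 0.68 to 1.20 for Nfix. Replicate numbers were shared between stages without a stated pairing, and deviations of equal numbers correlated at 0.12 over 16237 genes with 2 pairs. With the replicate block 4675 genes were higher and 4851 lower, against 4605 and 4740 without it, and all 4 members were called. Without Nfia in the sum, the share difference was -22.1 points for Nfib and 0.13 points for Nfic, where the stages overlapped. Among list counts, 1 of 12 radial glia genes rose without E13.5 replicate 1, without E16.5 replicate 1 and with DESeq2, 4 meningeal genes rose without E13.5 replicate 2, and 1 gene of other regions fell without it.

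Counts of stage-specific regions were the least stable. With every list of a mark reduced to the same number of peaks, the E16.5-only counts were 6 for H3K9ac and 5 for H3K9cr and the E13.5-only counts 7 and 1. At a −log10 q of at least 5, H3K9cr had 11 and H3K18la 4 E16.5-only regions, and the ATAC-seq lists held 11 and 16 peaks at the 4 genes. With a library left out, E16.5-only counts ran from 17 to 27 for H3K9ac, 22 to 36 for H3K9cr and 2 to 30 for H3K18la, and E13.5-only counts from 2 to 8, 0 to 4 and 9 to 33, since a single library then defined a stage. The summed length difference was 32.4 kb for H3K9ac with the same number of peaks, against 50.5 kb, and ran from 39.3 to 61.8 kb with a library left out. For H3K9cr it ran from 48.9 to 85.6 kb. For H3K18la it ran from -56.7 to 7.59 kb and was reversed, at 7.59 kb, without E16.5 replicate 1, against -24.6 kb with it. The cause was not tested for these values. With 2 libraries per stage and unknown read depth, region counts and lengths describe these libraries.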
